A study of Homo sapiens with 8 samples.

Results

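Replication-dependent histone genes supply the core and linker histones that package newly made DNA. The members described here are all protein-coding rows of the deposited table whose symbols name a gene of the H2AC, H2BC, H3C or H4C series, H4-16, or H1-1 to H1-6. This rule used names only and found 63 of the 24598 genes: 5 encode the linker histone H1, 15 H2A, 16 H2B, 13 H3 and 14 H4. The cells were CCD-1077Sk, a human skin fibroblast line past passage 8, grown to 70% confluency and collected 6 h after treatment. The control group received the vehicles (BSA, citric acid and DMSO), the TGFB1 group TGFB1 with DMSO, the celastrol group BSA and citric acid with celastrol at 500 nM, and the last group TGFB1 with celastrol at 500 nM. TGFB1 is a cytokine that makes fibroblasts produce matrix, and celastrol is a plant triterpenoid. No TGFB1 dose is stated in the labels. Each group had 2 libraries of total RNA. The labels name 1 cell line and leave unsaid whether the libraries of a group are separate cultures. The p-values therefore speak only of the spread between libraries, and that spread may be technical.

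Most mRNAs of these genes have no intron and no poly(A) tail. They end just after a conserved stem-loop, which is bound by the stem-loop binding protein SLBP and cut by a complex that holds the U7 small nuclear RNA, and their levels rise in S phase and drop when DNA synthesis stops. NPAT drives their transcription at nuclear bodies next to the gene clusters, and some members are also made as spliced or extended poly(A)-tailed mRNAs in cells that do not divide. Total RNA libraries measure both kinds, and these values do not separate them.

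In hg38 the members lie in 4 places. The larger chromosome 6 cluster holds 30 (chr6:26017032-26285638), the smaller one 21 (chr6:27125897-27893891) and a chromosome 1 cluster 11 (chr1:149782689-149887965), while H4-16 stands alone on chromosome 12 (chr12:14767999-14771131). Of 58 members matched in the GENCODE 29 annotation, 57 have a reference transcript of a single exon. A stem-loop was looked for in those transcripts by its letters, and 26 members hold one, against 39 of 19922 protein-coding genes (0.2%). Of the 32 matched members without these letters, 31 have a longer span in the deposited table than in GENCODE 29, so the missing letters say nothing of the mRNA itself. The stem-loops of 5 members are shown because their changes, given below, ran from the largest fall of H4 to the only rise, with the 16 bases of stem and loop in capitals.
H4C9: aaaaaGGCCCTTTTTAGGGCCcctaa
H4C14: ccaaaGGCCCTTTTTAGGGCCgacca
H4C2: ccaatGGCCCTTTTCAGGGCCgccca
H3C8: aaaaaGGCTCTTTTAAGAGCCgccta
H2BC21: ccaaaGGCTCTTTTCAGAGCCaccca
H4C9 and H4C14 carry the same capital letters, as does H4C15. H2BC21 carries the form shared by 13 members.

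The libraries held 20716706 to 42518341 estimated reads, and a count of 0 allows up to 3 reads, or 1.8 to 4.24 normalized reads, for counting error only. All 63 members passed the filter of 10 normalized reads in 2 libraries, with means over all libraries from 51.1 to 2448. The values of 24 members were whole reads in every library, and 39 were fractional in some library, as when reads are shared among genes. H3C14 and H3C15 had identical values in all 8 libraries and cannot be told apart, and 16 members overlap another gene of the table. The fibroblast markers summed to between 377400 and 669200 normalized reads in every library. Of 5 endothelial markers, 3 had values, which summed to 18.3 to 32.5 without celastrol and 269.6 to 356.9 with it, and 2 of 4 melanocyte markers summed to 8.76 to 14.1 and 95.7 to 133.7. Immune markers (3 of 5) summed to 245 to 369 and 374 to 516 in the same order, and keratinocyte markers (2 of 5) to 2032 to 2374, but 4771 to 5000 with TGFB1 alone. The part of these shifts in the histone results was not tested.

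Celastrol lowered the summed level of every histone type. All members together stood at 59543 and 59148 normalized reads in the control libraries and at 37458 and 33434 with celastrol, 59.7% of the control mean. Both celastrol libraries lay far below both controls. By type, the celastrol mean was 53.4% of control for H1, 56.2% for H2A, 65.0% for H2B, 53.5% for H3 and 67.6% for H4. The members made up 0.23% and 0.232% of all normalized reads in the control libraries and 0.139% and 0.122% with celastrol. In bulk RNA, fewer cells of a type and less RNA per cell cannot be told apart.

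**Figure D1:**
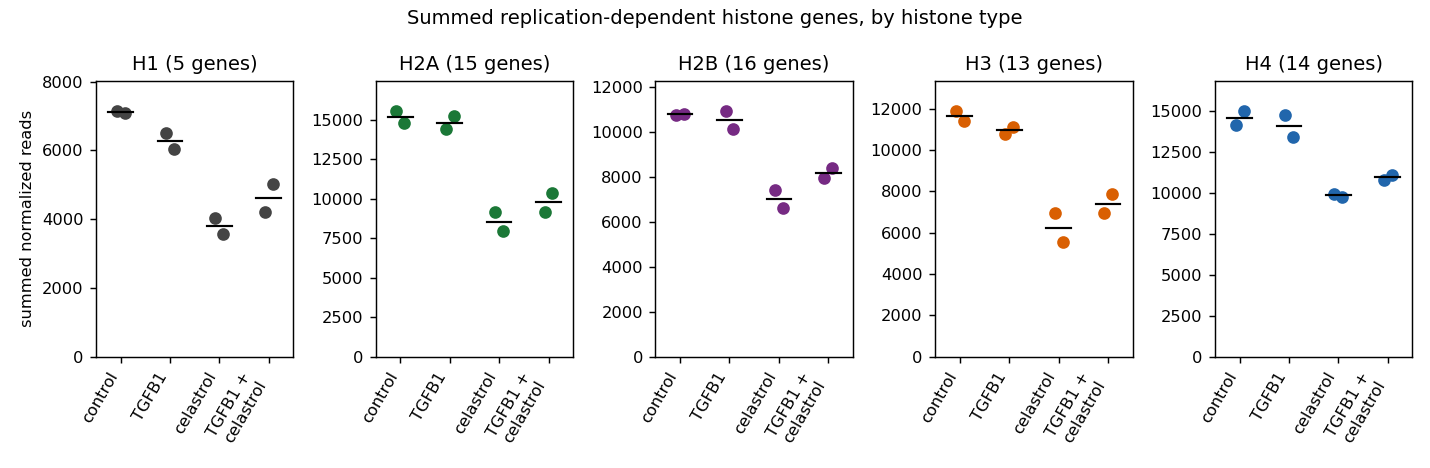
Summed normalized reads (vertical axes, from 0) of the members of each histone type in the 4 groups. Points are the 2 libraries of a group and lines their mean. In every type both celastrol libraries lie below both control libraries, and both libraries with TGFB1 and celastrol lie below both with TGFB1 alone.

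By limma, 54 of the 63 members were lower with celastrol than in control, 1 was higher and 8 did not pass the test (limma, Benjamini-Hochberg adjusted over all 22866 genes tested, threshold 0.05). Over all genes 21.3% were lower and 33.8% higher, 55.1% in all, and among the 14739 genes averaging 50 normalized reads or more 28.3% were lower. At a common total the lower calls were 59 members and 26.4% of all genes, and with median centring 59 and 32.7%. The median log2 change of the members was -0.74, against 0.08 over all genes tested. Both celastrol libraries lay below both controls for 61 members, as for 33.8% of all genes. All 15 H2A and all 5 H1 genes fell, as did 12 of 13 H3, 12 of 16 H2B and 10 of 14 H4 genes. Of the calls, 45 of 55 held in each of 18 other settings of the analysis.

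H1 binds the linker DNA between nucleosomes. The most abundant gene of this type, H1-5, stood at 3000.3 and 2851 in control, 3032 and 2818 under TGFB1, 1864 and 1524 under celastrol and 2092 and 2405 under both (normalized reads). Its celastrol libraries were the lowest, and those with both agents lay between. H1-5 changed by -0.80 (SE 0.10, adjusted p = 0.000268) on the log2 scale. H1-3 fell most of the 5, from 1412 and 1288 in control to 376 and 269 with celastrol. The groups were widely apart, with a log2 change of -2.08 (SE 0.16, adjusted p = 1.35e-05). For H1-2, a linker histone gene also known as a poly(A)-tailed mRNA, the control values 1537 and 1784 became 955 and 1021 with celastrol, a log2 change of -0.75 (SE 0.12, adjusted p = 0.000717). H1-4 and H1-1 fell less, with log2 changes of -0.56 and -0.60.

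H2A and H2B pair into dimers that join the H3 and H4 tetramer in the nucleosome. The H2A gene with the highest level, H2AC18, had, in normalized reads, 2863 and 2750.3 in control, 2865 and 3036 under TGFB1, 1468 and 1177 under celastrol and 1572 and 1709 under both. The 4 libraries with celastrol were the lowest and did not overlap the others. H2AC18 changed by -1.09 (SE 0.10, adjusted p = 3.69e-05). Its values were whole reads in 0 of the 8 libraries, so the level of H2AC18 may depend on how shared reads were split. H2AC4 fell further, with 472 and 472 normalized reads in control and 163 and 156 with celastrol (33.8% of control; log2 -1.56, SE 0.12, adjusted p = 1.52e-05). H2AC8, second in level among the H2A genes, had 1815 and 1658 in control and 1308 and 1107 with celastrol, one of the smaller falls of the type (log2 -0.53, SE 0.09, adjusted p = 0.00138). H2AC7 was measured at 71.6 and 106 in control and at 41.5 and 0.0237 with celastrol. Its second celastrol value lies under the limit that a count of 0 allows, while the first does not. The fitted change of H2AC7, -3.74 (SE 1.34, adjusted p = 0.0423), therefore depends on the pseudocount and on the second celastrol library. That change ran from -6.43 to -1.05 over 18 other settings, and the call was lost in 9 of them. Of the 50-base words of the H2AC7 reference transcript, 98.0% are also found in another gene. The H2AC7 values were whole reads in 1 of the 8 libraries, so its level may depend on how shared reads were split. The celastrol mean of H2AC7 was 23.5% of control.

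Among H2B genes, H2BC11 fell most. Its values were 579.7 and 545 in control, 705 and 544 under TGFB1, 205 and 148 under celastrol and 206 and 159.9 under both (normalized reads), so that all 4 libraries with celastrol lay below the other 4. The log2 change of H2BC11 was -1.68 (SE 0.19, adjusted p = 0.000126). The most abundant H2B genes moved less: H2BC4 had 1778 and 1781 in control and 1425 and 1224 with celastrol (log2 -0.43, SE 0.09, adjusted p = 0.0044). H2BC18 had 1083 and 1100.2 and 866 and 737 in the same order (log2 -0.45, SE 0.08, adjusted p = 0.00187). Neither overlapped between the groups. H2BC12, H2BC13 and H2BC3 did not pass the test, with log2 changes of -0.35, -0.41 and -0.23.

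H3 and H4 form the tetramer at the centre of the nucleosome. In H3C8 the control values 1062 and 989 became 393 and 309 with celastrol, 34.2% of control (log2 -1.55, SE 0.12, adjusted p = 1.17e-05). H3C11 had 201 and 169.8 in control and 54.9 and 67.8 with celastrol (log2 -1.58, SE 0.19, adjusted p = 0.00017), and H3C1 changed by -1.49 (SE 0.12, adjusted p = 1.76e-05). The celastrol libraries of all 3 lay well below control. The H3 genes with the highest levels, H3C2 and H3C7, changed less: H3C2 went from 1733 and 1669 to 1271 and 1049 (log2 -0.56, SE 0.09, adjusted p = 0.00096) and H3C7 from 1662 and 1564 to 1089.9 and 899.8 (log2 -0.70, SE 0.11, adjusted p = 0.000654). H3C12 was the only H3 gene that did not pass, and the only member whose celastrol and control libraries overlapped.

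Changes of H4 genes ran from -2.35 for H4C9 to -0.08 for H4C1. H4C9 (chr6:27138588-27139881, plus strand) had, in normalized reads, 413 and 378 in control, 340.4 and 324 under TGFB1, 71.9 and 82.4 under celastrol and 95.3 and 94.6 under both. Every library with celastrol was under every library without it. The change of H4C9, -2.35 (SE 0.13, adjusted p = 3.03e-06), left 19.5% of the control level. H4C2 had 928 and 1053 in control and 339 and 374 with celastrol (log2 -1.47, SE 0.10, adjusted p = 7.04e-06). H4C14 had 1575 and 1677 in control and 605 and 644 with celastrol, and changed by -1.38 (SE 0.08, adjusted p = 3.79e-06). H4C6, the H4 gene with the highest level, went from 2606 and 2631 to 1930.1 and 1805, a smaller fall (log2 -0.49, SE 0.06, adjusted p = 0.000163). H4C4, H4C3, H4C1 and H4C15 did not pass the test, at -0.23, -0.23, -0.08 and -0.34. For H4C4 the libraries were close: 1755 and 1766 in control, 1850.2 and 1653 under TGFB1, 1605 and 1409 under celastrol and 1938 and 1689 under both. The 4 H4 genes not called include H4C15, whose stem-loop letters are those of H4C9 and H4C14. H4C15 was called lower with celastrol in 4 of 18 other settings. Of the 50-base words of the H4C14 and H4C15 reference transcripts, 100% and 95.1% are also found in another gene. Their values were whole reads in 1 and 2 of the 8 libraries, so both levels may depend on how shared reads were split.

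**Figure D2:**
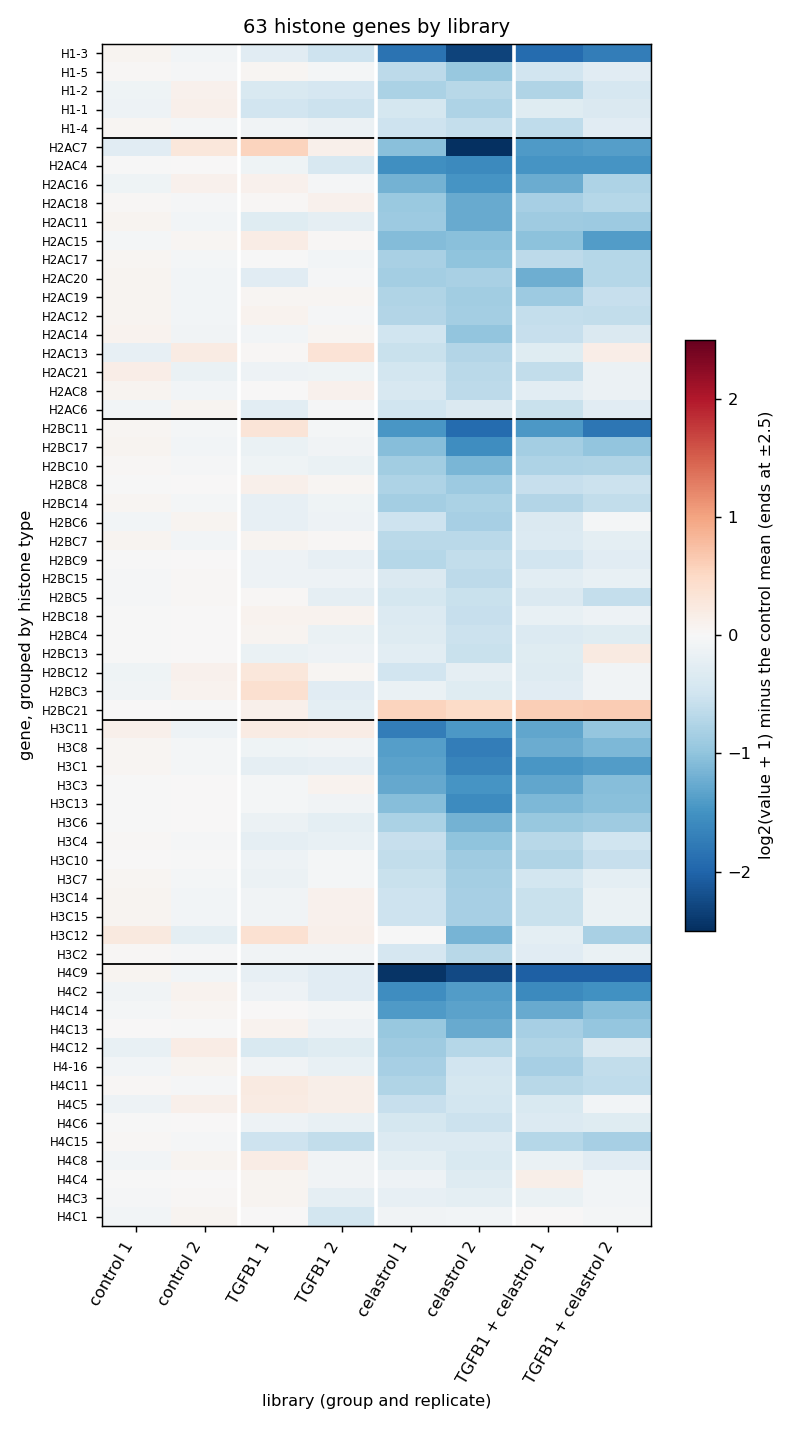
Each of the 63 members (rows, grouped by histone type and ordered by the celastrol change) in each library (columns): colour is log2(value + 1) minus the mean of the control libraries, with the scale ending at ±2.5. The 4 columns with celastrol are blue for most genes, and H2BC21 is the single row that is red in all 4.

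H2BC21, an H2B gene also known as a poly(A)-tailed mRNA, was the exception. It stood at 227 and 221 in control, 244 and 189 under TGFB1, 332 and 314 under celastrol and 343 and 348 under both (normalized reads). Every library with celastrol was above every library without it. The H2BC21 values were whole reads in 0 of the 8 libraries, so they may depend on how shared reads were split. H2BC21 rose by 0.53 against control (SE 0.13, adjusted p = 0.00981) and by 0.68 with TGFB1 present (SE 0.13, adjusted p = 0.00206). The first call was lost with median centring (adjusted p = 0.0521) and without celastrol replicate 1 (adjusted p = 0.0614). The H2BC21 reference transcript in GENCODE 29 is 2194 bases long, with the stem-loop 1729 bases from its 3′ end and a poly(A) signal in its last 50 bases. Such a transcript, ending more than 100 bases past the stem-loop, is annotated for 20 members, and 18 of them were lower with celastrol, H2AC11 among them. Of the 38 matched members without one, 31 were lower, against 21.3% of all genes.

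H2BC21 (chr1:149884459-149886652, minus strand) starts 266 bases from H2AC20 (chr1:149886918-149887411, plus strand), an H2A gene transcribed away from it. H2AC20 had, in normalized reads, 1799 and 1626 in control, 1413 and 1684 under TGFB1, 949.9 and 973 under celastrol and 737 and 1048 under both, with the libraries given celastrol below the others. H2AC20 fell (log2 change -0.83, SE 0.15, adjusted p = 0.00187) while its neighbour rose. By the starts in the deposited table, 9 such divergent pairs of H2A and H2B genes were found, 219 to 283 bases apart. In the other 8 no gene was called higher in either celastrol comparison. H2BC15, whose RefSeq start lies 809 bases from that of the table, was not counted in a pair. H2AC11 and H2BC11, 247 bases apart, both fell, with log2 changes of -1.08 and -1.68. As for H2BC21, the values of H2AC20 and of H2BC11 were whole reads in 0 libraries and share its limit.

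The promoters of 4 members are printed from RefSeq (GRCh38), 250 bases before to 50 after the RefSeq start, to set the gene that rose and one that did not pass beside the largest falls of H2B and H4. Capitals mark the TATA box (TATAAA), the CCAAT box and the octamer (ATTTGCAT), on either strand. The H2BC21 window (chr1:149886633-149886932, minus strand) spans the stretch between the starts of H2BC21 and H2AC20. H2BC11 is at chr6:27132746-27133045 (minus strand), H4C9 at chr6:27139032-27139331 (plus strand) and H4C4 at chr6:26189063-26189362 (minus strand).
H2BC21: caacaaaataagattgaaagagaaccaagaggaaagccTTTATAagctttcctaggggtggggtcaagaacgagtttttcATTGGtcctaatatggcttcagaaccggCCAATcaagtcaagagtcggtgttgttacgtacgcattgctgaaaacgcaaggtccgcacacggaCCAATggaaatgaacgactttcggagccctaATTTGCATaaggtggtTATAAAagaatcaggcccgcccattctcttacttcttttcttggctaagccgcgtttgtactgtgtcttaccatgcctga
H2BC11: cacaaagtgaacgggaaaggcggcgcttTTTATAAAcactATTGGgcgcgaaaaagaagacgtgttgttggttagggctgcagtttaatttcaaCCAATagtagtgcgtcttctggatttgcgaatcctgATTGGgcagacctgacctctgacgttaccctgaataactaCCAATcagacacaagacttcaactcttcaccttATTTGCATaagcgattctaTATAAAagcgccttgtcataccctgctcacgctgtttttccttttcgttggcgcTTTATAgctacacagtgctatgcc
H4C9: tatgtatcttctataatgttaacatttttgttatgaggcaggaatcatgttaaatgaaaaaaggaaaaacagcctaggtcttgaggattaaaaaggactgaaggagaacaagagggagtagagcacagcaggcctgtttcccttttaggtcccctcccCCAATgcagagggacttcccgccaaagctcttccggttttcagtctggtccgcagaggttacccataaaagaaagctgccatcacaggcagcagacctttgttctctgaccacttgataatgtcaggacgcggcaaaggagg
H4C4: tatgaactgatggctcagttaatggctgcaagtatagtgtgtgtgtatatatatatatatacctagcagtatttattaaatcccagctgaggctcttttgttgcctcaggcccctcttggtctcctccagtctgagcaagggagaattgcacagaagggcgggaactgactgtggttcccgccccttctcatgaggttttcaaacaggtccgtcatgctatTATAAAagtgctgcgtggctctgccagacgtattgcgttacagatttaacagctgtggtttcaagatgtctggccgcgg
The promoters of H2BC21 and H2BC11, which moved in opposite directions, hold all 3 motifs. H4C9 holds CCAAT only, and H4C4 TATAAA only. RefSeq promoters were matched for 57 members: TATAAA was in 39 of them (11.96% of 27305 promoters of the same length), CCAAT in 49 (35.7%) and the octamer in 23 (1.8%). The octamer was in 13 of 16 H2B and 10 of 14 H2A promoters and in none of the 5 H1, 11 H3 and 11 H4 promoters. Divergent H2A and H2B pairs have overlapping windows, so the same octamer, TATA box or CCAAT box can be counted for both genes. H2AC11 and H2BC11 hold the same octamer on opposite strands, as do H2AC20 and H2BC21. CCAAT was in 3 of 11 H4 promoters and in every promoter matched of the other types. For the 4 members with several RefSeq starts, the start nearest to that of the deposited table was taken. For 4 members (H2BC6, H2BC15, H3C8 and H4C9) the RefSeq start still lay more than 200 bases from that of the table, 694 bases for H4C9. The windows of H4C14 and H4C15 hold the same letters. A match is a description of letters, not a site in use.

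With TGFB1 present, celastrol again lowered most members. All members together stood at 57389.9 and 55899 normalized reads with TGFB1 and at 39096 and 42769.9 with TGFB1 and celastrol, 72.3% of the TGFB1 mean. The summed level was 73.7% for H1, 66.1% for H2A, 77.6% for H2B, 67.7% for H3 and 77.7% for H4. By limma, 41 members were lower, 1 (H2BC21) was higher and 21 did not pass. Over all genes 25.9% were lower and 37.5% higher, with 35.8% lower among genes averaging 50 normalized reads or more. At a common total 28 members and 18.2% of all genes were lower, and with median centring 55 and 39.8%. The members' median log2 change was -0.39, against 0.12 over all genes tested. Both libraries lay below both for 53 members, as for 34.8% of all genes. Of the 42 calls, 29 held in each of 18 other settings, and without single libraries between 30 and 42 members were called.

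The largest falls were largely those seen without TGFB1. H4C9 changed by -1.80 (SE 0.13, adjusted p = 8.79e-06), H2BC11 by -1.77 (SE 0.19, adjusted p = 7.18e-05) and H1-3 by -1.43 (SE 0.16, adjusted p = 7.27e-05). H4C2 followed at -1.35, H3C11 at -1.33, H2AC4 at -1.22 and H3C1 at -1.21, each called. H2AC15, an H2A gene, had, in normalized reads, 66.3 and 71.1 in control, 77.9 and 70.2 under TGFB1, 31.8 and 32.8 under celastrol and 33.0 and 25.4 under both, with all libraries given celastrol lowest. Its change with TGFB1 was -1.32 (SE 0.24, adjusted p = 0.00135). Among the most abundant members, H2AC18 fell (log2 -0.85), while H1-2, H3C2, H3C7 and H4C4 did not pass, at -0.19, -0.13, -0.26 and 0.05. The falls of H1-5, H2AC8, H2BC4, H2BC18 and H4C6, between -0.38 and -0.17, were each lost in 4 to 8 other settings, scaling to a common total among them.

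The celastrol comparisons without and with TGFB1 share no library. Across the 63 members their changes correlated at r = 0.87 (rho = 0.86), a description across genes that share libraries and neighbours. In both, 40 members were lower and H2BC21 was higher. A further 14 were lower only in the comparison without TGFB1 (H1-1, H1-2, H2AC6, H2AC7, H2AC13, H2AC21, H2BC6, H2BC9, H2BC15, H3C2, H3C7, H3C14, H3C15 and H4C12), H2BC12 only in that with TGFB1, and 7 passed in neither. A difference in calling is not a tested difference, and the interaction is given below. Among the 40, the change was smaller with TGFB1 for 37.

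**Figure D3:**
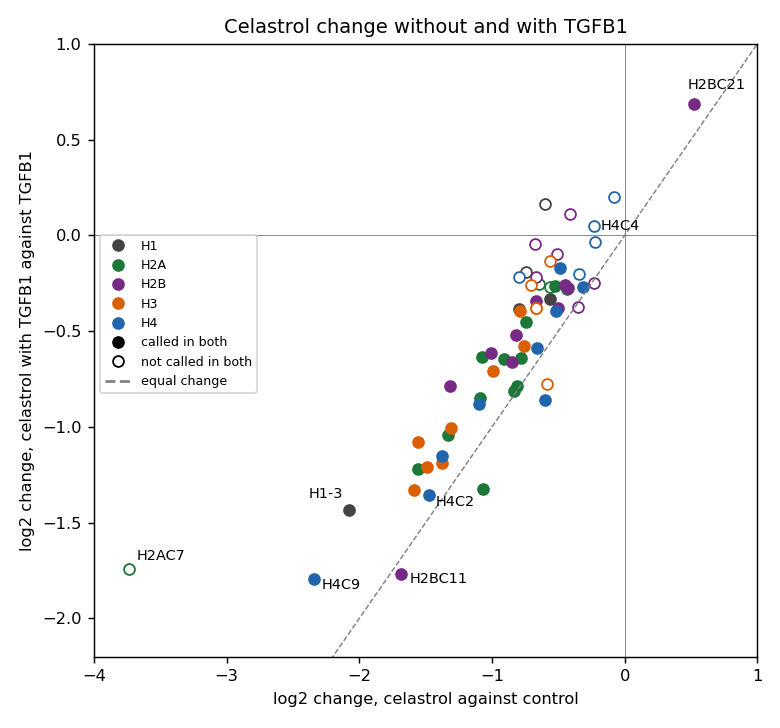
Log2 change with celastrol against control (horizontal) and with celastrol and TGFB1 against TGFB1 (vertical) for the 63 members, coloured by histone type. Filled points were called in both, and the dashed line marks equal change. Most points lie above the line and below 0 on both axes, and H2BC21 alone is called above 0 on both.

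TGFB1 alone moved few members. None was higher and 2 were lower than control, against 12.8% and 10.6% of all genes, with a member median of -0.08. Both TGFB1 libraries were below both controls for 26 members (28.4% of all genes). H4C15, an H4 gene, had, in normalized reads, 204 and 197 in control, 139 and 131 under TGFB1, 158 and 157 under celastrol and 123 and 113 under both. Both libraries with TGFB1 alone lay below both controls, and those with both agents were lowest. The H4C15 change was -0.56 (SE 0.14, adjusted p = 0.0176), against a share of 23.5% of genes called in either direction. Its values may depend on how shared reads were split, as said above. H1-2 had 1537 and 1784 in control and 1275 and 1245 with TGFB1, without overlap, and changed by -0.39 (SE 0.12, adjusted p = 0.0411). The H1-2 call was lost in 9 of 18 other settings (adjusted p up to 0.217) and that of H4C15 in 4 of 18 (adjusted p up to 0.0914). Without control replicate 1, control replicate 2 or TGFB1 replicate 2 no member was called. H1 genes had a median change of -0.39, with both TGFB1 libraries below both controls for 4 of 5. Library totals were highest with TGFB1: scaled to a common total, all genes shifted by -0.22, and 20 members and 23.5% of all genes were lower. With median centring all genes shifted by 0.12, the member median turned to 0.04, and 1 member and 7.76% of all genes were lower.

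On a celastrol background, TGFB1 gave no call among the members by limma, with or without voom weights, and 2 among all genes (0.00875%). At an unadjusted p under 0.05 there were 22 members and 868 of the 22866 genes. Over the members the median change was 0.20, and both libraries with both agents were above both with celastrol alone for 29 members (16.7% of all genes). The interaction tests whether the celastrol change depends on TGFB1. It was called higher for 1 member, H4C6, against 4.36% of genes higher, 6.89% lower and 11.3% in either direction. H4C6 had, in normalized reads, 2606 and 2631 in control, 2397 and 2298 under TGFB1, 1930.1 and 1805 under celastrol and 2057 and 2117 under both, the 4 groups ordered without overlap from control down through TGFB1 and both agents to celastrol. The H4C6 interaction was 0.32 (SE 0.08, adjusted p = 0.0429), and the call was lost in 9 of 17 other settings. Over the 63 members the median interaction was 0.28, and over all genes 0.01. At a common total the medians were 0.52 and 0.22, with 20 members and 10.8% of all genes called higher. With median centring they were 0.17 and -0.11, with no member called. Without celastrol replicate 1, 10 members were called.

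By group, the 7 members known also as poly(A)-tailed mRNAs (H1-2, H2AC6, H2BC4, H2BC5, H2BC12, H2BC21 and H4C8) had a median celastrol change of -0.43, with 5 lower and 1 higher, and of -0.27 with TGFB1, with 4 lower and 1 higher. The other 56 had medians of -0.79 and -0.58, with 49 and 37 lower. Over all genes 21.3% and 25.9% were lower in turn. By place, the medians without and with TGFB1 were -0.67 and -0.38 on chromosome 1, -0.67 and -0.31 in the larger chromosome 6 cluster and -0.80 and -0.64 in the smaller one. Of the 24 members with whole reads in every library, 20 were lower with celastrol, at a median of -0.70. Per kilobase, over the 39 members with a span under 1000 bases, levels ran from 138.5 for H2AC15 to 6531 for H4C6 with a median of 1659 normalized reads.

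The machinery that makes and ends histone mRNA moved both ways. Of 22 genes for 3′ end processing and transcription, 5 were higher and 10 lower with celastrol (median -0.17), and 3 and 11 with TGFB1 present (median -0.22). Over all genes 33.8% were higher and 21.3% lower with celastrol, and 37.5% and 25.9% with TGFB1 present. In this list with TGFB1 present, 3 were higher and 9 lower at a common total (median -0.06), and 2 and 17 with median centring (median -0.51). The shares of all genes were 43.0% higher and 18.2% lower at a common total, and 30.4% and 39.8% with median centring. SLBP had, in normalized reads, 1027 and 956 in control, 1226 and 998 under TGFB1, 1610.1 and 1815 under celastrol and 1837 and 1539 under both, higher in every library with celastrol. SLBP rose by 0.79 against control (adjusted p = 0.000653) and by 0.60 with TGFB1 (adjusted p = 0.00228). ZNF473, a zinc finger protein of the U7 particle, rose by 1.02 (adjusted p = 2.63e-05) and 0.51 (adjusted p = 0.000978), the second lost with median centring (adjusted p = 0.0513). NPAT had, in normalized reads, 1324 and 1317 in control, 1435 and 1192 under TGFB1, 1109 and 1033 under celastrol and 1023 and 1061 under both, lower in the libraries with celastrol. Its changes were -0.30 (SE 0.09, adjusted p = 0.0205) and -0.33 (SE 0.09, adjusted p = 0.0122) in turn. The first was lost without control replicate 1 or 2, without celastrol replicate 2 or with no variance trend. The second was lost at a common total (log2 -0.17, adjusted p = 0.155), with no variance trend, or without TGFB1 replicate 1 or replicate 1 of both agents. HINFP, an activator of H4 genes, fell (log2 -0.84 and -0.75), as did CASP8AP2, a protein of the histone locus body (log2 -0.83 and -0.88). UPF1, which helps degrade histone mRNA, fell as well (log2 -0.35 and -0.86). With TGFB1 alone 5 genes of the list were higher and none lower (median 0.07), which turned to 1 higher and 4 lower at a common total.

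Histone chaperones carry newly made histones to DNA. Of 20, 1 was higher and 9 lower with celastrol (median -0.19), and 1 and 11 with TGFB1 present (median -0.23). That is 45.0% and 55.0% lower, against 21.3% of all genes with celastrol alone and 25.9% with TGFB1 present. In the latter, 1 was higher and 4 lower at a common total (median -0.07), and none higher and 17 lower with median centring (median -0.52). The shares of all genes were 43.0% higher and 18.2% lower at a common total, and 30.4% and 39.8% with median centring. NASP, a chaperone of H1 and of H3 with H4, had, in normalized reads, 2394 and 1996 in control, 2425 and 2158 under TGFB1, 1197 and 1069.8 under celastrol and 1269 and 1282 under both, low in all libraries with celastrol. NASP changed by -0.95 (SE 0.10, adjusted p = 7.9e-05) and -0.84 (SE 0.10, adjusted p = 0.000117). HJURP, the chaperone of the centromeric H3, fell (log2 -1.08 and -0.56), the second call lost without replicate 1 of TGFB1 with celastrol (adjusted p = 0.0668). UBN1, a subunit of the HIRA complex, rose by 0.28 and 0.29, and both calls were lost with median centring (0.11, adjusted p = 0.116, and 0.00, adjusted p = 0.945). With TGFB1 alone 1 of the 20 was higher (median 0.05), against 12.8% of all genes. At a common total 5 of the 20 were lower, against 23.5% of all genes.

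Of 14 histone genes expressed outside S phase as well, 1 was higher and 2 lower with celastrol (median -0.08), and 5 and 3 with TGFB1 present (median 0.11). The lower shares, 14.3% and 21.4%, were below those of all genes, 21.3% with celastrol alone and 25.9% with TGFB1 present. In the latter, 7 were higher and 1 lower at a common total (median 0.27), and none higher and 6 lower with median centring (median -0.17). The shares of all genes were 43.0% higher and 18.2% lower at a common total, and 30.4% and 39.8% with median centring. H3-3A and H3-3B did not pass against control, at log2 differences of -0.08 (adjusted p = 0.356) and -0.09 (adjusted p = 0.346), both genes encoding the replacement H3 used outside replication. With TGFB1 present H3-3A did not pass (-0.01), while H3-3B fell by 0.30 (adjusted p = 0.00618), a call lost at a common total (adjusted p = 0.132). H2AZ1 and H2AX did not pass against control either, at 0.03 and -0.20 (adjusted p = 0.0521 for H2AX). With TGFB1 present H2AX did not pass (-0.02), while H2AZ1 rose by 0.36 (adjusted p = 0.0232). That call was lost with median centring (0.07, adjusted p = 0.592), with no variance trend, and without TGFB1 replicate 2 or either library of both agents. MACROH2A1, a large H2A variant, had, in normalized reads, 5779 and 5267 in control, 6942 and 6606 under TGFB1, 2691 and 2675 under celastrol and 2648 and 2544 under both, and its libraries with celastrol were lowest. It fell in both comparisons (log2 -1.04 and -1.38). With TGFB1 alone 2 of the 14 were higher and none lower (median -0.09), and none higher and 5 lower at a common total (median -0.32).

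Of 32 genes active in S phase, 2 were higher and 14 lower with celastrol (median -0.31), and 4 and 7 with TGFB1 present (median -0.01). That is 43.8% and 21.9% lower, against 21.3% of all genes with celastrol alone and 25.9% with TGFB1 present. In the latter, 8 were higher and 5 lower at a common total (median 0.15), and 2 and 17 with median centring (median -0.29). The shares of all genes were 43.0% higher and 18.2% lower at a common total, and 30.4% and 39.8% with median centring. Against control, 17 of the 32 were lower at a common total and 23 with median centring, where 26.4% and 32.7% of all genes were lower. MCM3, of the replicative helicase, had, in normalized reads, 2395 and 2021 in control, 2085 and 2092 under TGFB1, 1484 and 1301 under celastrol and 1518 and 1438 under both, lowest with celastrol. MCM3 fell in both comparisons (log2 -0.66 and -0.50). The 2 genes higher against control were CDC6 and SLBP, which is also counted above among the genes for 3′ end processing. CDC6, which loads that helicase, rose by 0.65 and 0.84, the first lost without celastrol replicate 1 (adjusted p = 0.0547). PCNA, the DNA polymerase clamp, had log2 differences of -0.43 (SE 0.11, adjusted p = 0.0109) and -0.09 (SE 0.11, adjusted p = 0.494). The first of these calls was lost with no variance trend (adjusted p = 0.0541). It was also lost without control replicate 1 (log2 -0.34) or celastrol replicate 2 (log2 -0.31). MKI67, a marker of cycling cells, passed in neither, at -0.36 and 0.19. With TGFB1 alone 2 of the 32 were lower and none higher (median -0.08), against 10.6% and 12.8% of all genes. At a common total 9 of the 32 were lower and none higher, against 23.5% and 6.19% of all genes. With median centring 2 of the 32 were lower and 4 higher (median 0.04), against 7.76% and 20.9% of all genes.

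**Figure D4:**
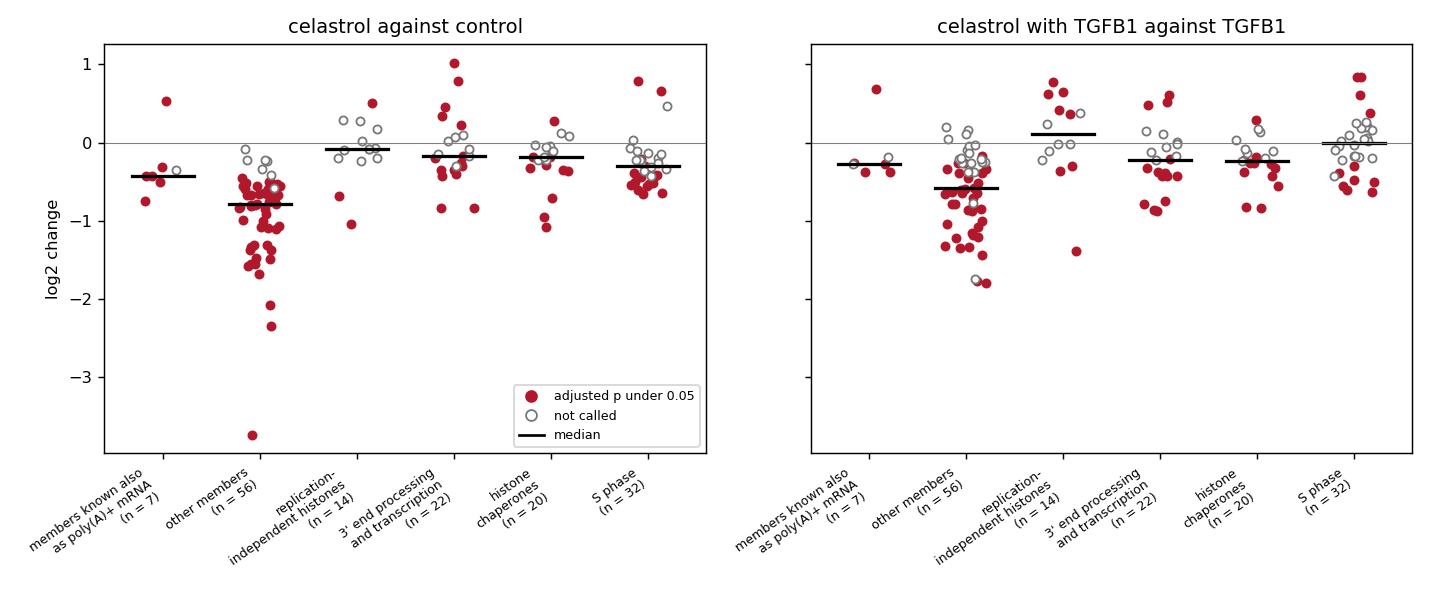
Log2 change (vertical) of each gene of 6 groups with celastrol against control (left) and with celastrol and TGFB1 against TGFB1 (right). Red points passed the adjusted p threshold of 0.05, open points did not, and bars are medians, which are -0.79 and -0.58 for the 56 other members. Those of the S-phase genes are -0.31 and -0.01, and those of the replication-independent histones -0.08 and 0.11.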

How the data were processed

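RNA was measured in 8 libraries of 4 groups. The deposited table gives 1 normalized signal value per gene and library: the tools named, per the submitters' processing notes, are STAR 2.7.3a, Partek 10.0.22 and DESeq2, and the build hg38. Their roles, the annotation, the counting rule and the use of strand are not given in the sources read. Between 73.6% and 76.0% of the values in each library were multiples of 1 step, the worth of a read, so the deposited signal is read as estimated reads over a size factor (normalized reads), and no count model was fitted. Columns were matched to groups by their names.

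Values were analysed as log2(value + 1), which understates changes of low genes. Genes with at least 10 normalized reads in 2 libraries were tested with limma 3.58.1 in R 4.3.3: 1 mean per group, all 8 libraries, a variance trend, 4 residual degrees of freedom, two-sided tests, and Benjamini-Hochberg adjustment within each of 5 comparisons over 22866 genes. The script was tested on simulated data. All adjusted p-values are from limma. Stem-loops and promoters were read from GENCODE 29 transcripts and RefSeq.

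The members, lists and rules were chosen with earlier results of these data known. Named members were up to 8 rises and 8 falls per celastrol comparison and for TGFB1 against control, up to 4 elsewhere, with at least 50 normalized reads and no overlap, and the 2 highest members of each type. From each list up to 4 genes with the smallest p, and 9 further genes, could be named. H2AC20, H4C14 and members listed by their calls or promoters were named after their values were seen. Alternatives were other scalings, pseudocounts, filters, variance models, a replicate block and leaving out each library.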

Additional observations from a re-analysis of the deposited data

Results flagged for a closer look

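The celastrol change of H4C6, an H4 gene, differed between cells without and with TGFB1 by a test of that difference: the interaction was 0.32 on the log2 scale (SE 0.08, limma adjusted p = 0.0429). The call was lost in 9 of 17 other settings.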

How the results depend on the processing

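Celastrol calls among the members ranged from 50 to 56 without single libraries against control (55 in the main analysis), and from 30 to 42 with TGFB1 present (42). At a common total these were 60 and 29, and with median centring 59 and 56. For TGFB1 against control (2) the count was 20 at a common total, 1 with median centring or no variance trend, 0 with only the compared libraries, and 0 to 2 without single libraries. For the interaction (1) it was 20 at a common total, 0 with median centring or no variance trend, 3 with a filter of 50 normalized reads, and 0 to 10 without single libraries. Over all genes, calls for TGFB1 were 23.5% lower and 6.19% higher at a common total, and 7.76% and 20.9% with median centring. The cause was not tested. A replicate block gave 57, 44, 2 and 6 calls in these 4 comparisons; deviations of same-numbered libraries correlated at 0.05 to 0.08, so the numbers are not shown to pair the samples, and celastrol replicate 2 carries the number 3 in another label. Directions turned for CREBBP (-0.20), NCBP2 (-0.02) and UBN1 (-0.19) under TGFB1 at a common total, and for HAT1 (-0.25) with median centring in celastrol with TGFB1. The 2 libraries a group limit the precision, and shared or fractional reads limit near-identical genes.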
